A study of Mus musculus with 15 samples.

Results

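M2 cells, the most mature CD4 single-positive thymocytes of the thymus, were compared with the semi-mature and early mature cells (SM&M1) that precede them. The comparison used the 3 samples labelled M2 and the 3 wild-type samples labelled SM&M1, which are 6 of the 15 samples of the series. M2 cells were sorted as Qa2-positive and CD69-negative, and SM&M1 cells as Qa2-negative and CD69-positive. Both groups came from young adult C57BL/6 mice carrying a Rag2-GFP BAC transgene, in which GFP, driven by Rag2 regulatory sequence, marks T cells that formed recently. A dump gate on NK1.1, CD25 and GL3, together with the GFP gate, was meant to leave out natural killer T cells, regulatory T cells, gamma delta T cells and mature T cells that had returned to the thymus. The 9 other arrays held double-positive thymocytes before (PreDP) and after (PostDP) selection from B2m-/- mice, and Tak1-deficient SM&M1 cells from Tak1 f/f CD4Cre mice. They are used here only for levels at other stages. The series asks how NF-κB and tonic type I interferon signals take part in late thymocyte maturation.

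After positive selection, CD4 single-positive thymocytes stay for some days in the medulla of the thymus, where they lose CD69, gain Qa2 and become able to leave. Exit depends on S1pr1, a receptor that senses the sphingosine 1-phosphate of blood. Its gene is switched on by the transcription factor KLF2, and its protein is held inside the cell by CD69. During the same days the cells lose sensitivity to death by strong receptor signals and gain the ability to divide on stimulation.

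Values are the deposited linear signals of 1 probe set per gene, given for replicates 1, 2 and 3 in that order. Log2 values are log2(signal + 16), which makes the fold change of a dim gene look smaller than it is. Means are given with SD over the 3 arrays of a group, and differences are M2 minus SM&M1 with the standard error of the limma fit. A gene was called at a Benjamini-Hochberg adjusted p under 0.05 over all genes tested. Of 18193 genes measured, 10809 were bright enough to be tested. The labels call the replicates biological without saying that they came from separate animals, so each p-value refers to the spread among these samples only, part of which may be technical.

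The 6 arrays were alike in general quality, with median signals between 94.2 and 121.5, Actb 3' to 5' ratios between 1.03 and 1.12 and within-group correlations between 0.965 and 0.974. Replicate 1 of both groups stood apart in genes of other cells and of earlier stages. S100a8, a granulocyte gene, had signals of 1893, 96.7 and 15.0 in M2 and 1799, 26.5 and 26.2 in SM&M1. Rag1, a recombinase gene of double-positive cells, had 1346, 248 and 130 in M2 and 1482, 106 and 189 in SM&M1. Counts over all genes, and the results of several lists and genes, are therefore also given without replicate 1 of both groups. For the other calls that fit is not shown. Xist and Eif2s3y, transcripts of females and of males, were both high in every array of both groups (Xist at least 8542 and Eif2s3y at least 769).

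The sort markers differed in the sorted direction. Cd69, the early activation antigen used for the sort, had signals of 3174, 3240 and 2543 in M2, against 5245, 5667 and 6450 in SM&M1. All M2 arrays lay below all SM&M1 arrays, but the transcript was far from absent in the CD69-negative sort. The log2 difference was -0.95 ± 0.15 (SE, n = 3 each, adjusted p = 0.0119), and without SM&M1 replicate 3 the adjusted p was 0.0577. Qa2 is encoded by several nearly identical class Ib genes that share probe sets. The probe set of H2-Q7 and H2-Q9 had 13073, 15240 and 16398 in M2, against 5677, 5684 and 4076 in SM&M1, a log2 difference of 1.54 ± 0.18 (SE, n = 3 each, adjusted p = 0.00629 in the fit of all probe sets). The probe set of H2-Q6 and H2-Q8 differed by 1.19 ± 0.14 (SE, adjusted p = 0.00756) and that of H2-Q4, H2-Q6 and H2-Q8 by 0.73 ± 0.14 (SE, adjusted p = 0.0359). Which of these genes carried the difference cannot be told from shared probe sets.

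Both groups expressed genes of CD4 single-positive cells, but Cd8b1 was not dim. Cd4 had signals of 3607, 3931 and 4636 in M2 and 4145, 4486 and 5785 in SM&M1. Cd3e, a chain of the T cell receptor complex, had 7082, 7729 and 9624 in M2 and 6483, 8191 and 9315 in SM&M1. Zbtb7b, the factor that fixes the CD4 fate, had 1575, 1794 and 1357 in M2 and 1537, 2130 and 2210 in SM&M1. The groups overlapped in Cd4 and Cd3e, and neither gene was called (adjusted p = 0.522 and 0.948). Cd8a was low in both groups, with 138, 119 and 21.2 in M2 and 245, 190 and 185 in SM&M1, against a mean log2 signal of 13.89 in PreDP. Another Cd8a probe set was brighter, with mean log2 signals of 8.32 in M2 and 8.34 in SM&M1. Cd8b1 had 1339, 1144 and 1163 in M2 and 1469, 1230 and 1168 in SM&M1, against a mean log2 signal of 14.38 in PreDP. These signals were well above the array medians. Map3k7, which encodes the kinase TAK1, had 976, 1214 and 1084 in M2 and 1335, 1392 and 1350 in SM&M1, and was not called (log2 difference -0.32 ± 0.12, SE, adjusted p = 0.224).

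Across all genes tested, 571 were called, which is 5.28% of 10809. Of these, 271 rose in M2 (2.51%) and 300 fell (2.78%). At least 2-fold changes made up 243 of the calls (2.25%), with 112 higher (1.04%) and 131 lower (1.21%) in M2. The median log2 difference of all genes tested was -0.008. Groups did not overlap in 2684 genes (24.8%), and in all 571 of those called. With replicate number as a block, which compares each M2 array with the SM&M1 array of its number, 1014 genes were called (9.38%), 491 higher (4.54%) and 523 lower (4.84%), and 557 of the 571 were among them. Without replicate 1 of both groups 323 genes were called, 270 of them among the 571. All 571 kept their direction, but groups that do not overlap cannot change direction when arrays are left out. Leaving out 1 array gave 220 calls without SM&M1 replicate 3, 251 without M2 replicate 3, 264 without M2 replicate 2 and 313 without SM&M1 replicate 2.

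**Figure D1:**
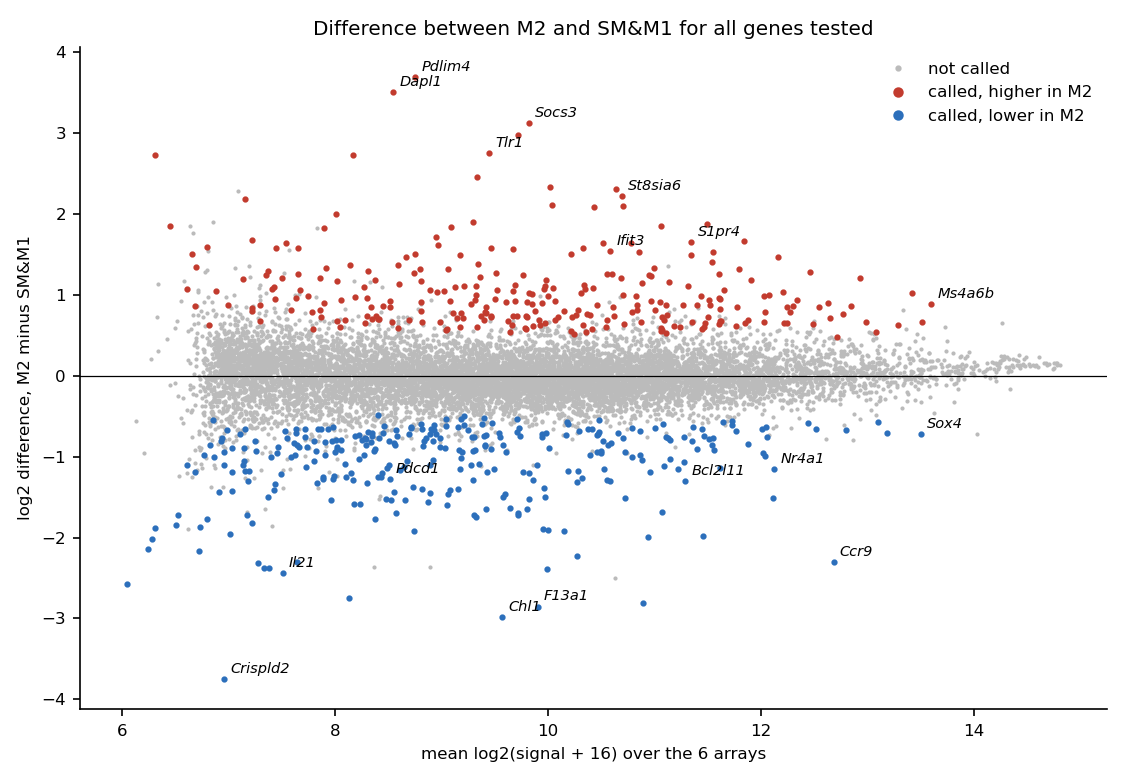
Log2 difference, M2 minus SM&M1 (vertical axis), against the mean log2(signal + 16) of the 6 arrays (horizontal axis) for the 10809 genes tested, 1 point per gene. Red points are the 271 genes called higher and blue points the 300 genes called lower in M2. Pdlim4 and Dapl1 stand highest and Crispld2 stands lowest.

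M2 replicate 1 was often the M2 array nearest to SM&M1. Among the 271 genes called higher it was the lowest M2 array for 171, against 57 for replicate 2 and 43 for replicate 3. Among the 300 called lower it was the highest M2 array for 161, against 75 and 64. The part that other cells or earlier-stage cells in this array have in that pattern was not tested.

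Genes of maturation and thymic egress were called higher in 12 of 28 tested members, against 2.51% of all genes tested. Of 32 genes in a list of egress receptors, their regulators and markers of mature CD4 cells, 28 were tested, none fell, and the median log2 difference of the 28 was 0.62. The replicate block gave 15 higher and 1 lower. A positive difference was found for 27 of them. The list was chosen with knowledge of this population, so its direction is not independent evidence.

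S1pr1, the exit receptor, had signals of 2866, 4930 and 2855 in M2, against 834, 881 and 667 in SM&M1. S1pr4, a related receptor for sphingosine 1-phosphate, had 4549, 4723 and 4538 in M2, against 1365, 1687 and 1326 in SM&M1. The lowest M2 array exceeded the highest SM&M1 array severalfold for S1pr1 and for S1pr4 the M2 arrays hardly varied. S1pr1 rose by a log2 difference of 2.10 ± 0.23 (SE, n = 3 each, adjusted p = 0.00362) and S1pr4 by 1.65 ± 0.13 (SE, adjusted p = 0.00156). S1pr1 was already higher in SM&M1 (9.65 ± 0.21, SD) than its levels of 6.76 in PreDP and 7.49 in PostDP. P2ry10, a receptor for lysophosphatidylserine, rose with them, with 2928, 3267 and 3242 in M2, against 1284, 1107 and 864 in SM&M1 (log2 difference 1.54 ± 0.16, SE, adjusted p = 0.00297). Each of these 3 calls held when any 1 array was left out.

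Klf2, the direct activator of S1pr1 and a factor of T cell quiescence, had signals of 4959, 5294 and 4996 in M2, against 1851, 2076 and 1389 in SM&M1 (log2 difference 1.53 ± 0.16, SE, adjusted p = 0.00309). Foxo1, the factor upstream of Klf2, had 4964, 6235 and 6523 in M2, against 2271, 4018 and 2803 in SM&M1 (log2 difference 0.99 ± 0.22, SE, adjusted p = 0.0468). Klf3, a repressor of the same family, had 4302, 5224 and 3655 in M2, against 1774, 2050 and 976 in SM&M1 (log2 difference 1.5 ± 0.28, SE, adjusted p = 0.0236). The groups stayed apart for all 3 genes, but SM&M1 replicate 2 came close to the lowest M2 array for Foxo1. Klf2 kept its call when any 1 array was left out, while Foxo1 reached an adjusted p of 0.153 without M2 replicate 3 and Klf3 0.0826 without M2 replicate 2. The stage levels of the pair of KLF genes differed: Klf2 had 7.63 in PreDP and 7.7 in PostDP, whereas Klf3 was at 12.65 in PreDP, against 12.09 ± 0.26 (SD) in M2. Of 12 tested KLF family genes only these 2 were called, against 5.28% of all genes tested, and the median was 0.07.

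Dapl1, a gene used as a marker of mature and naive T cells, had the largest change of the list. Its signals were 975, 1400 and 1425 in M2, against 82.5, 93.4 and 111 in SM&M1, a log2 difference of 3.51 ± 0.18 (SE, n = 3 each, adjusted p = 0.000432), or 11.4-fold. It was at 4.59 in PreDP and 5.15 in PostDP, near the floor of the scale. Il6ra, the ligand-binding chain of the interleukin-6 receptor, had 4729, 5057 and 4705 in M2, against 1623, 2194 and 1678 in SM&M1 (log2 difference 1.40 ± 0.15, SE, adjusted p = 0.00297). Slfn1, a Schlafen gene linked to T cell quiescence in mice, had 4434, 5762 and 6859 in M2, against 1872, 2923 and 2037 in SM&M1 (log2 difference 1.32 ± 0.22, SE, adjusted p = 0.0164, and 0.0786 without SM&M1 replicate 3). No M2 array overlapped the SM&M1 arrays in these genes. The other members of the list that rose were Ms4a4c, Ms4a6b, Itgb7 and Itga4, described with their families. Without replicate 1 of both groups 9 members rose, and leaving out 1 array gave 8 to 12, the lowest without M2 replicate 3.

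Il7r, the receptor for the survival cytokine interleukin-7, was the member with the lowest difference. Its signals were 6527, 7447 and 7809 in M2 and 8240, 10029 and 11153 in SM&M1, and its log2 difference of -0.43 ± 0.15 (SE) did not pass (adjusted p = 0.179), except with the replicate block (adjusted p = 0.049). Ccr7, the receptor that draws thymocytes into the medulla, was bright in both groups, with 9180, 10196 and 9653 in M2 and 7030, 7960 and 8863 in SM&M1, and was not called (log2 difference 0.29 ± 0.13, SE, adjusted p = 0.295).

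**Figure D2:**
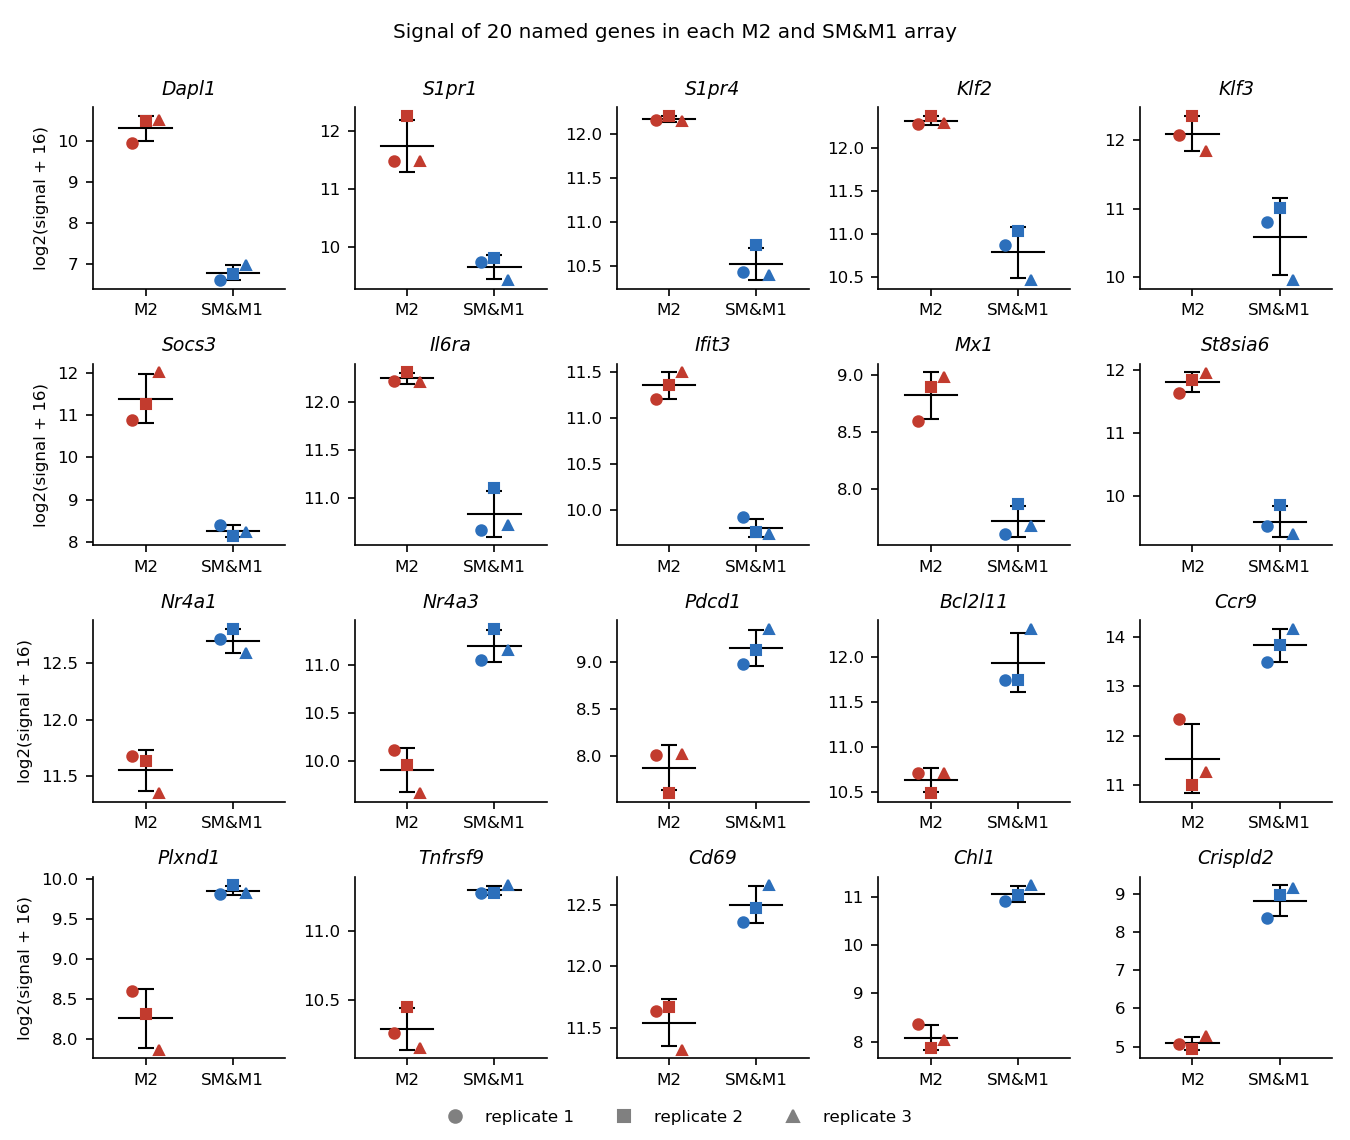
Log2(signal + 16) of 20 named genes in the 3 M2 arrays (red, left) and the 3 SM&M1 arrays (blue, right), with replicates marked by shape, the mean as a line and the SD as a bar. Each panel has its own scale. In every panel the M2 points lie wholly above or wholly below the SM&M1 points.

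Receptors that guide cells inside the thymus or to tissues changed in both directions. Of 19 tested chemokine and migration receptors 3 rose, namely S1pr1, S1pr4 and P2ry10, and 4 fell, with a median of 0.20. Over all genes tested 2.51% rose and 2.78% fell. Without SM&M1 replicate 3 only 2 of the 4 passed. Ccr9, the receptor for thymic and gut CCL25, had signals of 5128, 2029 and 2441 in M2, against 11518, 14616 and 18457 in SM&M1. Plxnd1, a semaphorin receptor that moves selected thymocytes to the medulla in mice, had 372, 301 and 217 in M2, against 884, 955 and 892 in SM&M1. Ccr8 had 281, 247 and 219 in M2, against 569, 771 and 681 in SM&M1. The highest M2 array for Ccr9 was replicate 1, yet it stayed below every SM&M1 array. Ccr9 fell by 2.30 on the log2 scale (SE 0.34, adjusted p = 0.0108, and 0.0595 without SM&M1 replicate 3). Its other 3 probe sets above background fell further, with differences of -3.25, -3.54 and -2.43. Plxnd1 fell by 1.6 (SE 0.19, adjusted p = 0.0048) and Ccr8 by 1.37 (SE 0.16, adjusted p = 0.00395). Ptger4, a prostaglandin receptor, fell by 0.68 (SE 0.12, adjusted p = 0.0165, and 0.0646 without SM&M1 replicate 3). At the double-positive stages the mean log2 signal of Ccr9 was 14.26 in PreDP and 14.37 in PostDP. That of Plxnd1 was 12.31 in PreDP and 10.75 in PostDP, all above their levels in M2 and SM&M1. Cxcr4 did not pass (log2 difference 0.93 ± 0.23, SE, adjusted p = 0.0647), but did with the replicate block (adjusted p = 0.0137).

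Integrin alpha chains and beta chains alike changed in both directions. Of 20 tested integrins and adhesion molecules 3 rose and 2 fell, against 2.51% and 2.78% of all genes tested. The median was 0.09, and 5 rose and 3 fell with the replicate block. Itgb7, which pairs with Itga4 for homing to the gut, had signals of 3626, 3887 and 4157 in M2, against 1807, 2253 and 1831 in SM&M1. Itga4 had 2542, 3490 and 2724 in M2, against 1419, 1566 and 1620 in SM&M1. Itgb1, the other common partner of Itga4, had 277, 327 and 163 in M2, against 553, 620 and 541 in SM&M1. The beta chains thus lay on opposite sides, without overlap in any of them. Itgb7 rose by 0.99 ± 0.14 (SE, adjusted p = 0.00798), Itga6 by 0.99 ± 0.16 (SE, adjusted p = 0.0144) and Itga4 by 0.91 ± 0.15 (SE, adjusted p = 0.0158). Itgb1 fell by 1.16 (SE 0.23, adjusted p = 0.0336), and Itga5, which pairs with Itgb1, fell by 1.10 (SE 0.16, adjusted p = 0.00994). Itgb7 held its call in all 6 fits that left out 1 array. The adjusted p reached 0.0600 for Itga4, 0.0576 for Itga6 and 0.0538 for Itga5 without SM&M1 replicate 3, and 0.110 for Itgb1 without SM&M1 replicate 2. Without replicate 1 of both groups only Itgb7 kept its call (adjusted p = 0.0488).

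Cytokine receptors and SOCS signalling genes rose more often than they fell. Of 25 tested cytokine receptor genes 4 rose (Il6ra, Il18r1, Il10rb and Ifngr1) and none fell, against 2.51% and 2.78% of all genes tested. The median was 0.16. Only 1 rose without M2 replicate 2, M2 replicate 3 or SM&M1 replicate 3, and 2 rose without replicate 1 of either group. With the replicate block 8 rose and 2 fell, among them Il17ra and Tgfbr2 higher and Il7r and Ifngr2 lower. Socs3, which shuts off STAT3 signalling from the interleukin-6 receptor, had signals of 1861, 2443 and 4118 in M2, against 324, 265 and 284 in SM&M1. Every M2 array was several times brighter than every SM&M1 array. The log2 difference was 3.13 ± 0.27 (SE, n = 3 each, adjusted p = 0.00171), or 8.73-fold, and its other probe sets differed by 2.37 and 2.68. Socs3 was bright in PreDP (10.33) and at 8.11 in PostDP, so its level over the stages was not a steady rise. Stat3 had 3951, 4063 and 3947 in M2, against 2349, 2824 and 2300 in SM&M1 (log2 difference 0.68 ± 0.13, SE, adjusted p = 0.0230, and 0.0972 without M2 replicate 2). Of 15 genes in the list of cytokine and SOCS signalling these 2 rose and none fell, and 4 rose with the replicate block, Stat4 and Pim1 among them.

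Il18r1, a chain of the interleukin-18 receptor, had signals of 796, 597 and 607 in M2, against 358, 200 and 163 in SM&M1 (log2 difference 1.48 ± 0.27, SE, adjusted p = 0.0230, and 0.0853 without SM&M1 replicate 2). Il10rb had 1075, 959 and 923 in M2, against 562, 737 and 542 in SM&M1 (log2 difference 0.68 ± 0.15, SE, adjusted p = 0.0464, and 0.148 without SM&M1 replicate 3). In both genes replicate 1 was the brightest M2 array, and the groups did not overlap. Il21, which encodes a cytokine of helper T cells, went the other way with 95.3, 60.5 and 40.2 in M2, against 400, 396 and 433 in SM&M1. It fell by 2.44 on the log2 scale (SE 0.23, adjusted p = 0.00229). Its levels were 4.55 in PreDP and 4.59 in PostDP, below both single-positive groups.

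**Figure D3:**
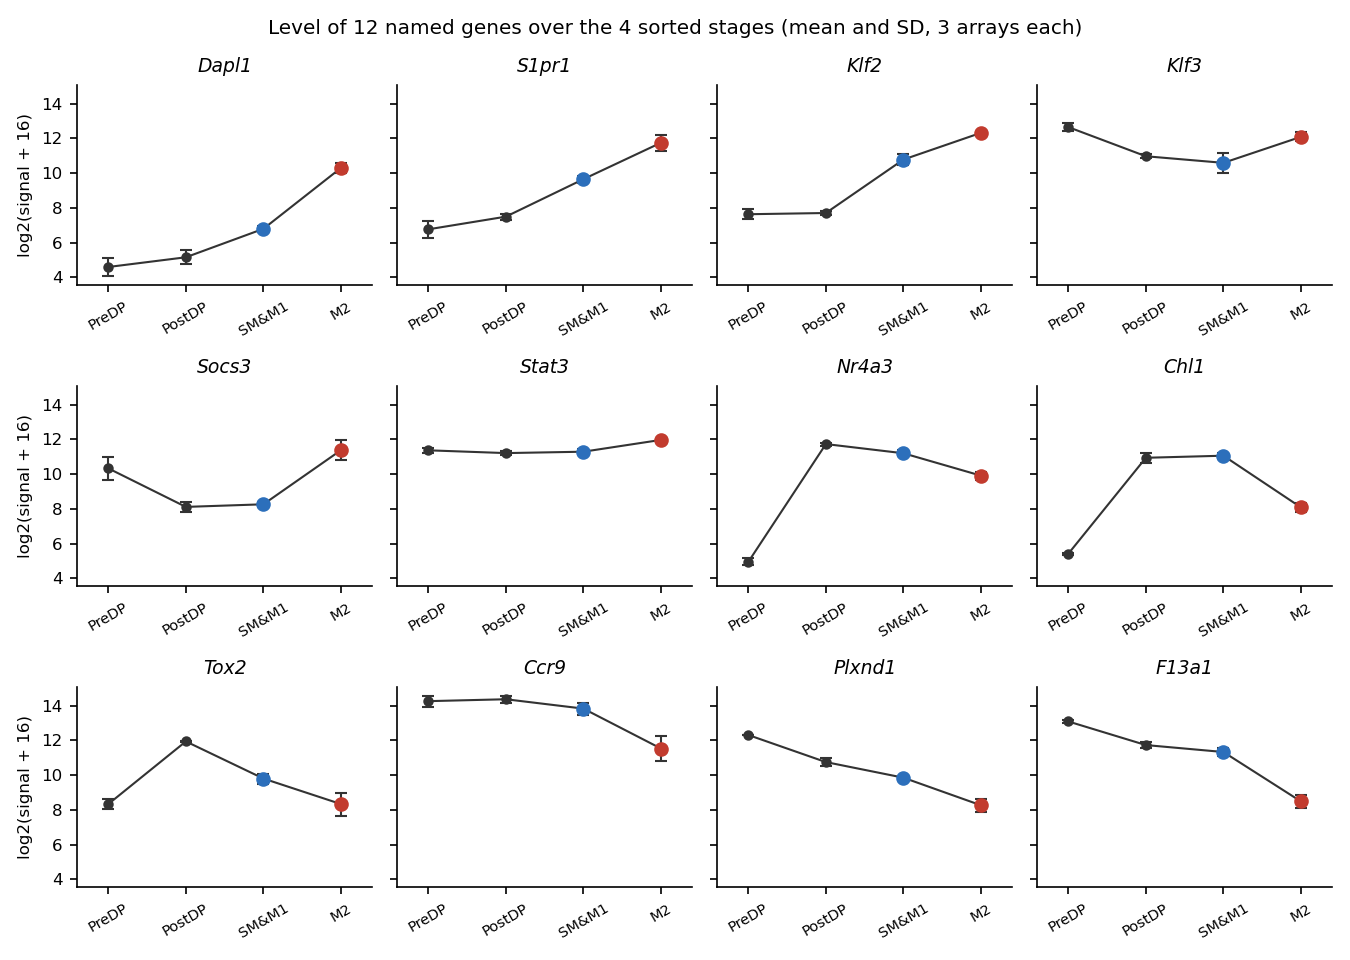
Mean log2(signal + 16) and SD (bars, 3 arrays each) of 12 named genes over the sorted stages PreDP, PostDP, SM&M1 (blue) and M2 (red). PreDP and PostDP came from another mouse line than SM&M1 and M2. Dapl1, S1pr1 and Klf2 are highest in M2, Socs3 and Klf3 are high in PreDP as well, and Nr4a3, Tox2 and Chl1 are higher in PostDP than in PreDP or M2.

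Interferon-stimulated genes, the antiviral effectors that type I interferon switches on, were called higher in 5 of 49 tested members, against 2.51% of all genes tested. None fell, 44 were not called, 46 had a positive difference, and the median log2 difference was 0.40, against -0.008 over all genes tested. With the replicate block 18 rose and none fell. Ifit3, a member of the IFIT family, had signals of 2346, 2615 and 2864 in M2, against 957, 857 and 840 in SM&M1. Mx1, a gene of the MX family, had 370, 459 and 489 in M2, against 179, 218 and 189 in SM&M1. Oas1a, which senses double-stranded RNA, had 1947, 1812 and 1937 in M2, against 1005, 1017 and 1066 in SM&M1. None of these overlapped between groups, and their M2 levels lay well above those in PreDP and PostDP, where Ifit3 was at 6.90 and 7.49 and Mx1 at 5.94 and 5.96.

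Ifit3 rose by 1.54 ± 0.13 (SE, n = 3 each, adjusted p = 0.00157), Mx1 by 1.10 ± 0.15 (SE, adjusted p = 0.00692) and Oas1a by 0.87 ± 0.11 (SE, adjusted p = 0.00559). Oas2 rose by 1.09 ± 0.17 (SE, adjusted p = 0.0119, and 0.0617 without SM&M1 replicate 3). Cmpk2, a mitochondrial nucleotide kinase, rose by 0.92 ± 0.16 (SE, adjusted p = 0.0202, and 0.0851 without SM&M1 replicate 3). Among genes that passed only with the block, Ifit1 had 4021, 4639 and 5382 in M2 and 2664, 3271 and 3273 in SM&M1 (adjusted p = 0.0257 with the block and 0.0717 without it). Irf7, the factor that amplifies the interferon response, had 2654, 3004 and 3479 in M2 and 1576, 2213 and 1950 in SM&M1 (adjusted p = 0.0325 with the block and 0.0674 without it). Usp18, which damps interferon receptor signalling, had 2798, 3242 and 2826 in M2 and 1761, 2283 and 1531 in SM&M1 (adjusted p = 0.0283 with the block and 0.0647 without it). These genes differed by 0.60 to 0.68 on the log2 scale, a smaller change than in Ifit3 or Mx1, and in each the groups did not overlap. Without replicate 1 of both groups 4 genes of the list rose, and 3 did without SM&M1 replicate 3.

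The stretch of the Ifit3 promoter that holds its interferon response elements is shown because Ifit3 was the member with the largest rise. It lies on the plus strand at chr19:34583348-34583441 (RefSeq, GRCm38.p6), and capitals mark the element GAAA, 2 bases of any kind and GAAA, which is read here on the opposite strand. Its matches begin at -156 and -122 from the start site.
Ifit3: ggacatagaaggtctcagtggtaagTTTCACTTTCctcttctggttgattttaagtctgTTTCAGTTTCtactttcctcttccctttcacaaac
On either strand the element occurred in 40.8% of the 49 promoter windows of the 37 interferon-stimulated genes tested that RefSeq gave a window, where a window runs from 250 bases before to 50 after a start site. It occurred in 4.92% of 305 windows of genes called higher in M2, in 1.45% of 345 windows of genes called lower, in 3.1% of 11238 windows of all genes tested and in 3.44% of all 32851 windows. A match describes the sequence and does not show a bound site.

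Upstream of these effectors the pattern was mixed. Of 22 tested genes from interferon receptors to STAT factors 3 rose (Socs3, Stat3 and Ifngr1) and 1 fell (Irf4), with a median of 0.11. Over all genes tested 2.51% rose and 2.78% fell. The replicate block gave 6 higher and 2 lower, and 1 rose without M2 replicate 2, M2 replicate 3, SM&M1 replicate 1 or SM&M1 replicate 3. Without replicate 1 of both groups 1 rose and 1 fell. Ifngr1, the ligand-binding chain of the type II interferon receptor, had signals of 1877, 2141 and 2253 in M2, against 1418, 1242 and 1322 in SM&M1 (log2 difference 0.65 ± 0.13, SE, adjusted p = 0.0281, and 0.116 without M2 replicate 2). Irf4, a factor induced in proportion to receptor signals, had 392, 410 and 322 in M2, against 812, 981 and 765 in SM&M1 (log2 difference -1.15 ± 0.15, SE, adjusted p = 0.00665). Its dimmer probe set differed by -0.26. MHC class I and antigen processing genes, many of them also induced by interferon, had a median of 0.27 over 19 tested genes. None of them was called by limma, and 8 had an unadjusted p under 0.05, against 2000 of all 10809 genes tested. With the replicate block Psmb9, an immunoproteasome subunit, rose (log2 difference 0.54 ± 0.13, SE, adjusted p = 0.0261, against 0.0673 without the block) and H2-Q2 fell (-1.52 ± 0.42, SE, adjusted p = 0.0138, against 0.0926).

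NF-κB pathway genes did not move in a single direction. Of 36 tested genes, which comprise the subunits, their inhibitors, the upstream kinases and known targets, 1 rose and 3 fell, with a median of -0.13. Over all genes tested 2.51% rose and 2.78% fell, so the share of the list that rose was close to that of all genes. With the replicate block 3 rose and 8 fell, and 1 fell without M2 replicate 3, SM&M1 replicate 2 or SM&M1 replicate 3. Rel, the subunit c-Rel, had signals of 176, 206 and 162 in M2, against 294, 370 and 317 in SM&M1. Nfkbid, a nuclear I-κB protein, had 2371, 2562 and 1943 in M2, against 3912, 4041 and 3706 in SM&M1. Bcl3, another nuclear I-κB protein, had 1224, 1308 and 1214 in M2, against 715, 886 and 766 in SM&M1. The pair of nuclear I-κB genes thus differed in opposite directions, each without overlap between groups.

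Rel fell by 0.80 (SE 0.14, adjusted p = 0.0200) and Nfkbid by 0.77 (SE 0.14, adjusted p = 0.0208), whereas Bcl3 rose by 0.66 ± 0.13 (SE, adjusted p = 0.0264). The adjusted p reached 0.0784 for Rel without M2 replicate 3, 0.0781 for Nfkbid without SM&M1 replicate 2 and 0.116 for Bcl3 without M2 replicate 2, and none of the 3 passed without replicate 1 of both groups. Tnfrsf9, the costimulatory receptor 4-1BB and an NF-κB target, had 1214, 1388 and 1126 in M2, against 2459, 2466 and 2566 in SM&M1. It fell by 1.0 (SE 0.12, adjusted p = 0.00548) in its brightest probe set and differed by -2.29 in another, and it held its call when any 1 array was left out. Among genes that passed only with the block, Relb, Tnfrsf4, Tnfrsf18, Icam1 and Gadd45b were lower and Traf1 and Ikbkb higher in M2. Nfkb1 was not analysed here.

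Stretches around a kB-like sequence, GGG, 4 bases of any kind and CCC, in the promoters of these 4 genes are shown because they are the called members of the pathway. The sequence was chosen after the promoters had been read. It reads the same on both strands, and capitals mark it in stretches on the gene's own strand (RefSeq, GRCm38.p6). They lie at chr4:150927932-150927991 (plus), chr11:23771027-23771086 (minus), chr7:30422156-30422214 (plus) and chr7:19822806-19822865 (minus), with the first base of the match at -42, -92, -226 and -85 from the start site of the window that holds it. Tnfrsf9 and Nfkbid have further promoter windows, and the sequence does not occur in those.
Tnfrsf9: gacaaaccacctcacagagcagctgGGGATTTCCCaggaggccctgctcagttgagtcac
Rel: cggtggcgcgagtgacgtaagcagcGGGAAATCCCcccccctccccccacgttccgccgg
Nfkbid: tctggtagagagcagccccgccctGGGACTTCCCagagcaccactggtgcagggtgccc
Bcl3: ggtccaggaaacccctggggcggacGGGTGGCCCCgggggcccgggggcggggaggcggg
A further match in Bcl3 begins at base 2 after the start site. The sequence occurred in 16.1% of windows of genes called higher, 20.3% of those called lower, 16.5% of those of all genes tested and 11.9% of all windows, so it was common. The gene that rose and the genes that fell alike hold it.

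Early target genes of T cell receptor signalling were called lower in 15 of 41 tested members, against 2.78% of all genes tested. Cd69, a sort marker, is among the 15, so its fall follows from the sort. The list was chosen with earlier results of these data known, so its direction is not independent evidence. The other 26 tested members were not called, 13 members had a positive difference, and the median log2 difference was -0.49. With the replicate block 19 fell and 2 rose (Myc and Zfp36), and 2 also rose with a filter at the 75th percentile and with a trended and robust prior. Nr4a1, a nuclear receptor whose level follows receptor signal strength, had signals of 3253, 3158 and 2589 in M2, against 6696, 7121 and 6147 in SM&M1. Nr4a3 had 1089, 974 and 792 in M2, against 2109, 2655 and 2266 in SM&M1. Egr2, a zinc finger factor induced by calcineurin and MAP kinase signals, had 1146, 1217 and 665 in M2, against 2021, 2408 and 2155 in SM&M1. M2 replicate 3 was the lowest array for all 3 genes, and none overlapped between groups.

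Nr4a1 fell by 1.15 on the log2 scale (SE 0.14, adjusted p = 0.0048), Nr4a2 by 1.20 (SE 0.16, adjusted p = 0.00743) and Nr4a3 by 1.29 (SE 0.16, adjusted p = 0.00548). Egr2 fell by 1.15 (SE 0.23, adjusted p = 0.0324, and 0.110 without SM&M1 replicate 3), and Nab2, the corepressor of EGR factors, by 1.15 (SE 0.18, adjusted p = 0.0116, and 0.0591 without SM&M1 replicate 3). The NR4A genes kept their calls when any 1 array was left out. Nr4a1 also belongs to the list of dissociation and stress genes. Of the 19 tested genes of that list it was the only one called, against 5.28% of all genes tested. Jun, an immediate early gene in both lists, had 2126, 3164 and 1446 in M2 and 1840, 1742 and 942 in SM&M1, with overlapping groups (log2 difference 0.56 ± 0.34, SE, adjusted p = 0.449).

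Further members were surface receptors and regulators of cell death. Pdcd1, the inhibitory receptor PD-1, had signals of 241, 178 and 244 in M2, against 487, 544 and 639 in SM&M1 (log2 difference -1.28 ± 0.17, SE, adjusted p = 0.00663). Bcl2l11, the death protein BIM needed for negative selection, had 1666, 1417 and 1657 in M2, against 3433, 3419 and 5092 in SM&M1 (log2 difference -1.30 ± 0.18, SE, adjusted p = 0.00845). Its 4 other probe sets differed by -1.14 to -1.33. Tox2 had 523, 211 and 256 in M2, against 1104, 795 and 756 in SM&M1 (log2 difference -1.47 ± 0.32, SE, adjusted p = 0.0431, and 0.145 without M2 replicate 3). M2 replicate 1 was the highest M2 array for Tox2 but not for Pdcd1. Tox, Gata3, Ikzf2, Irf4, Cd28, Tnfrsf9 and Cd69 made up the rest of the 15. Without replicate 1 of both groups 11 members fell, and 8 did without SM&M1 replicate 3.

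**Figure D4:**
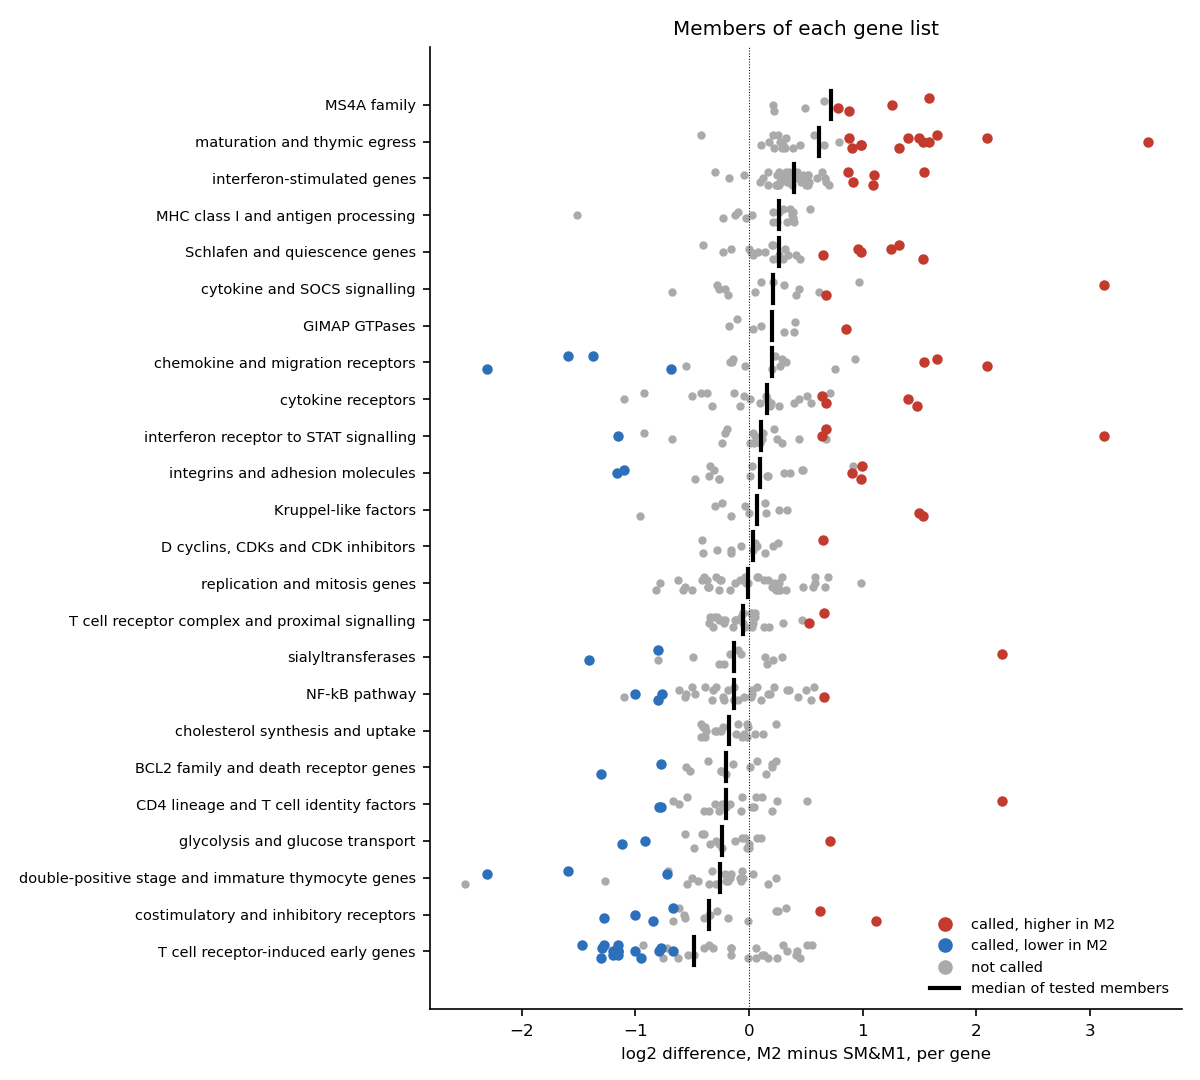
Log2 difference, M2 minus SM&M1 (horizontal axis), of each tested member of 24 gene lists with at least 5 tested genes (rows, ordered by median). Red points were called higher in M2, blue points called lower and grey points not called, and black bars are medians. The MS4A family (median 0.72) and the maturation list (0.62) stand at the top and T cell receptor-induced genes (-0.49) at the bottom.

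Genes of the receptor complex and of the CD4 lineage were called in 2 of 30 and 3 of 23 tested members, against 5.28% of all genes tested. In the complex and its proximal signalling 2 genes rose and none fell, with a median of -0.05. Dgka, which ends diacylglycerol signals, had signals of 13059, 14230 and 16892 in M2, against 8483, 9724 and 9588 in SM&M1 (log2 difference 0.66 ± 0.14, SE, adjusted p = 0.0383, and 0.121 without M2 replicate 3). Ptpn22, a phosphatase that restrains receptor signalling, differed by 0.52 ± 0.12 (SE, adjusted p = 0.0459), and every fit that left out 1 array ended that call (adjusted p 0.0714 to 0.150). Of 23 CD4 lineage and identity genes, St8sia6 rose and Gata3 and Tox fell, with a median of -0.20. Gata3, which acts before Zbtb7b in CD4 commitment, had 1920, 1755 and 1459 in M2, against 2829, 3099 and 2968 in SM&M1 (log2 difference -0.80 ± 0.14, SE, adjusted p = 0.0173, and 0.0740 without SM&M1 replicate 3). Tox had 2475, 2407 and 1823 in M2, against 3874, 3872 and 3664 in SM&M1 (log2 difference -0.78 ± 0.15, SE, adjusted p = 0.0256, and 0.0856 without SM&M1 replicate 2). Gata3 and Tox were highest in PostDP, at 12.76 and 12.88. Without replicate 1 of both groups no gene of the complex was called, and of the lineage genes only St8sia6 was.

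Among 24 tested genes of the double-positive stage 3 fell (Ccr9, Plxnd1 and Sox4) and none rose, against 2.78% and 2.51% of all genes tested. The median was -0.25, with 1 lower without SM&M1 replicate 3. Sox4, a transcription factor of immature thymocytes, had signals of 10111, 8343 and 8636 in M2, against 13662, 14307 and 16790 in SM&M1 (log2 difference -0.72 ± 0.14, SE, adjusted p = 0.0264, and 0.112 without M2 replicate 2). Cd24a, which encodes the heat-stable antigen lost during maturation, was named after its values were seen. It had 2431, 379 and 288 in M2 and 4325, 3667 and 3324 in SM&M1, and its difference of -2.50 ± 0.70 (SE) did not pass (adjusted p = 0.0949). M2 replicate 1 lay far above the other M2 arrays, and without replicate 1 of both groups the difference was -3.34 (adjusted p = 0.00487). Replicate 1 was also the array high in Rag1 in both groups.

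Death regulators fell where they changed. Of 15 tested BCL2 family and death receptor genes 2 fell, Bcl2l11 and Bmf, and none rose, against 2.78% and 2.51% of all genes tested. Without replicate 1 of both groups only Bcl2l11 passed (adjusted p = 0.0398, against 0.094 for Bmf). Bmf, a BH3-only protein like BIM, had signals of 264, 178 and 232 in M2, against 460, 354 and 365 in SM&M1 (log2 difference -0.77 ± 0.18, SE, adjusted p = 0.0494, and 0.146 without M2 replicate 2). Bcl2, the main survival protein of the family, had 2896, 4147 and 3582 in M2 and 3446, 4368 and 3827 in SM&M1, with overlapping groups and no call (adjusted p = 0.732). With the block Bbc3 and Fas were lower as well (adjusted p = 0.0377 and 0.0384, against 0.162 and 0.0578 without it).

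Costimulatory and inhibitory receptors fell more often than they rose, with 4 of 19 tested genes lower and 2 higher. Over all genes tested 2.78% were lower and 2.51% higher. The median of the 19 was -0.35, and 7 were lower under the replicate block. Icos, a costimulatory receptor of helper cells, had signals of 2912, 2859 and 2636 in M2, against 4733, 5489 and 4968 in SM&M1 (log2 difference -0.85 ± 0.12, SE, adjusted p = 0.00845). Cd28, the main costimulatory receptor, had 5268, 6119 and 5520 in M2, against 7730, 9652 and 9640 in SM&M1 (log2 difference -0.67 ± 0.14, SE, adjusted p = 0.0362, and 0.126 without SM&M1 replicate 3). Tnfrsf25, the death receptor family member DR3, went the other way with 789, 1032 and 990 in M2, against 416, 482 and 370 in SM&M1 (log2 difference 1.12 ± 0.16, SE, adjusted p = 0.00845). Groups did not overlap in any of these. Slamf6 differed by 0.62 ± 0.13 (SE, adjusted p = 0.0367), a call that ended whichever array was left out (adjusted p 0.0558 to 0.140).

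Of 24 tested Schlafen and quiescence genes 6 rose (Klf2, Slfn1, Tsc22d3, Foxo1, Slfn8 and Cdkn2d) and none fell, against 2.51% and 2.78% of all genes tested. The median was 0.26, but 2 rose without M2 replicate 2, M2 replicate 3 or SM&M1 replicate 3. Tsc22d3, the glucocorticoid-induced leucine zipper and a FOXO target, had signals of 2495, 3836 and 2933 in M2, against 1242, 1484 and 1099 in SM&M1 (log2 difference 1.25 ± 0.19, SE, adjusted p = 0.0115, and 0.0591 without SM&M1 replicate 3). Another of its probe sets differed by -0.03. Cdkn2d, an inhibitor of CDK4 and CDK6, had 5954, 6479 and 5815 in M2, against 4206, 3929 and 3495 in SM&M1 (log2 difference 0.65 ± 0.12, SE, adjusted p = 0.0261, and 0.116 without M2 replicate 2). None of 43 replication and mitosis genes was called by limma, with a median of -0.01. In this list 7 were at an unadjusted limma p under 0.05, against 2000 of all 10809 genes tested. With the block 4 were higher and 1 lower. Their median was -0.10 and 1 fell without replicate 1 of both groups, and without M2 replicate 1 alone 5 fell. Their summed signal was 94826, 57942 and 60705 in M2 and 80144, 63813 and 69392 in SM&M1, highest in replicate 1 of both groups. Mki67, a marker of cycling cells, had 3585, 1572 and 1653 in M2 and 2146, 1281 and 1250 in SM&M1, highest in replicate 1 of each group.

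In metabolic and ribosomal lists calls came from glucose metabolism. None of 20 cholesterol genes, 46 cytosolic ribosomal protein genes and 73 oxidative phosphorylation genes was called by limma, with medians of -0.17, 0.15 and -0.02. At an unadjusted p under 0.05 were 2 cholesterol genes, 1 ribosomal protein gene and 1 oxidative phosphorylation gene, against 2000 of all 10809 genes tested. A positive difference was found for 42 ribosomal protein genes, 34 oxidative phosphorylation genes and 3 cholesterol genes. In 19 tested genes of glucose transport and glycolysis 2 fell and 1 rose, against 2.78% and 2.51% of all genes tested. With the replicate block 4 fell, Hk2 and Pkm among them. Ldhb, a lactate dehydrogenase subunit, had signals of 1422, 1541 and 1447 in M2, against 2965, 2974 and 3720 in SM&M1 (log2 difference -1.12 ± 0.13, SE, adjusted p = 0.00505). Slc2a3, the glucose transporter GLUT3, had 2180, 2056 and 2316 in M2, against 3969, 4095 and 4363 in SM&M1 (log2 difference -0.92 ± 0.11, SE, adjusted p = 0.00552). Pdk1, a kinase that inhibits pyruvate dehydrogenase, had 7406, 8434 and 8928 in M2, against 5484, 4772 and 4823 in SM&M1 (log2 difference 0.71 ± 0.13, SE, adjusted p = 0.0209, and 0.0914 without M2 replicate 2). Both genes that fell kept their calls whichever array was left out.

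Membrane protein families of lymphocytes stood out through the MS4A genes, relatives of the B cell protein CD20 found together on chromosome 19. Of 8 tested members 4 rose and none fell, against 2.51% and 2.78% of all genes tested. All 8 had a positive difference, and the median was 0.72. Ms4a4c had signals of 2175, 2070 and 2405 in M2, against 900, 658 and 649 in SM&M1 (log2 difference 1.58 ± 0.16, SE, adjusted p = 0.00274). Ms4a6b, which regulates T cells in mice, had 14959, 17351 and 18415 in M2, against 8878, 9653 and 8853 in SM&M1 (log2 difference 0.88 ± 0.13, SE, adjusted p = 0.00931). Ms4a6d had 278, 282 and 329 in M2, against 133, 85.5 and 131 in SM&M1 (log2 difference 1.26 ± 0.18, SE, adjusted p = 0.00845). These 3 kept their calls when any 1 array was left out. Ms4a6c differed by 0.78 ± 0.17 (SE, adjusted p = 0.0396), but lost its call with the replicate block (adjusted p = 0.0645) and whichever array was left out, although a second probe set differed by 2.52. Members of this family resemble each other in sequence, and how far their probe sets share signal was not tested.

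Gimap3, a GTPase of lymphocyte survival, was the only one of 8 tested GIMAP genes called, against 5.28% of all genes tested. It had signals of 5812, 6727 and 7079 in M2, against 3629, 3966 and 3220 in SM&M1 (log2 difference 0.86 ± 0.14, SE, adjusted p = 0.0139). The adjusted p was 0.0610 without SM&M1 replicate 3 and 0.0523 without replicate 1 of both groups. None of 4 tested LY6 genes was called by limma, and none had an unadjusted p under 0.05. Of 14 sialyltransferases 1 rose and 2 fell, against 2.51% and 2.78% of all genes tested. St8sia6, which adds alpha-2,8-linked sialic acid, had 3163, 3657 and 3939 in M2, against 716, 911 and 653 in SM&M1, a log2 difference of 2.22 ± 0.16 (SE, adjusted p = 0.00129), and its other probe sets differed by 1.99 and 2.32. St3gal2, which adds alpha-2,3-linked sialic acid, had 343, 290 and 316 in M2, against 665, 913 and 1071 in SM&M1 (log2 difference -1.41 ± 0.18, SE, adjusted p = 0.00665). St3gal5 fell by 0.80 (SE 0.16, adjusted p = 0.0334, and 0.122 without SM&M1 replicate 3). St8sia6 thus lay above and both St3gal genes below SM&M1, without overlap between groups.

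The 12 largest rises over all genes were Pdlim4, Dapl1, Socs3, Rflnb, Tlr1, Tent5a, Sidt1, Arsb, Klhdc2, St8sia6, App and Btbd11, between 2.11 and 3.70 on the log2 scale. Pdlim4, a PDZ and LIM domain protein of the actin cytoskeleton, had signals of 1318, 1545 and 1795 in M2, against 145, 140 and 53.1 in SM&M1 (log2 difference 3.70 ± 0.32, SE, adjusted p = 0.00171). Rflnb, a filamin-binding protein, had 2210, 2575 and 2309 in M2, against 298, 312 and 247 in SM&M1 (log2 difference 2.99 ± 0.14, SE, adjusted p = 0.000403). Tlr1, the partner of TLR2 in sensing bacterial lipopeptides, had 1541, 1789 and 2110 in M2, against 270, 272 and 221 in SM&M1 (log2 difference 2.75 ± 0.16, SE, adjusted p = 0.000432). In PreDP Pdlim4 was at 5.99, Rflnb at 5.42 and Tlr1 at 4.9, below both single-positive groups, and none of the 3 overlapped between groups. Sidt1, Arsb and Klhdc2, which encode a membrane protein of the SID1 family, a lysosomal sulfatase and a ubiquitin ligase receptor, rose by 2.73 ± 0.29, 2.34 ± 0.15 and 2.32 ± 0.14 (SE, adjusted p = 0.00297, 0.000965 and 0.000451). Of the 12 rises, 10 kept their call whichever array was left out, while the adjusted p of Tent5a reached 0.137 without SM&M1 replicate 3 and that of App 0.0759 without M2 replicate 3.

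The 12 largest falls were Crispld2, Chl1, F13a1, Marcks, Asb2, Gpr153, Il21, Chdh, Mmp9, Edaradd, Armcx6 and Etv5, between -3.75 and -2.31. Crispld2, a secreted cysteine-rich protein, had signals of 17.3, 14.4 and 22.6 in M2, against 316, 486 and 554 in SM&M1 (log2 difference -3.75 ± 0.21, SE, adjusted p = 0.000432). Chl1, a cell adhesion molecule of the L1 family, had 312, 216 and 245 in M2, against 1912, 2078 and 2401 in SM&M1 (log2 difference -2.98 ± 0.16, SE, adjusted p = 0.000432). F13a1, the transglutaminase subunit of clotting factor XIII, had 427, 245 and 376 in M2, against 2147, 2701 and 2894 in SM&M1 (log2 difference -2.85 ± 0.22, SE, adjusted p = 0.00142). The 3 genes had different histories over the stages. Chl1 had a mean log2 signal of 5.41 in PreDP and 10.94 in PostDP, F13a1 was highest in PreDP at 13.09, and Crispld2 was at 8.89 in PreDP and 7.96 in PostDP.

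Marcks, a protein kinase C substrate that links membrane and actin, had signals of 1700, 460 and 437 in M2, against 7243, 3405 and 5119 in SM&M1 (log2 difference -2.81 ± 0.52, SE, adjusted p = 0.0234, and 0.100 without SM&M1 replicate 3). Etv5, an ETS factor induced by MAP kinase signals, had 132, 49.1 and 59.7 in M2, against 533, 383 and 387 in SM&M1 (log2 difference -2.31 ± 0.30, SE, adjusted p = 0.00692). Edaradd, an adaptor that couples the ectodysplasin receptor to NF-κB, had 153, 34.2 and 30.4 in M2, against 413, 338 and 342 in SM&M1 (log2 difference -2.37 ± 0.45, SE, adjusted p = 0.0264, and 0.102 without SM&M1 replicate 3). In all 3 genes replicate 1 was the brightest M2 array by a wide margin, without reaching any SM&M1 array. Without replicate 1 of both groups Marcks differed by -3.17 (adjusted p = 0.00568) and Edaradd by -2.89 (adjusted p = 0.00392). Mmp9, a gelatinase, lost its call without SM&M1 replicate 3 (adjusted p = 0.101).

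Markers of other cells and of stress were followed in 13 lists, of which 10 had their highest summed signal in replicate 1 of both groups. The 8 neutrophil and granulocyte markers summed to 4480, 526 and 476 in M2 and 4033, 267 and 387 in SM&M1. The 18 macrophage markers summed to 2770, 1306 and 1612 in M2 and 2620, 1180 and 1307 in SM&M1. C1qa, a defining macrophage gene, was near the floor in every array, with 19.8, 10.1 and 3.72 in M2 and 20.4, 5.1 and 5.0 in SM&M1. Other macrophage markers were not, and were highest in replicate 1. Lyz2 had 724, 150 and 124 in M2 and 690, 88.3 and 54.3 in SM&M1. Adgre1 had 150, 102 and 107 in M2 and 258, 75.3 and 99.0 in SM&M1. Neutrophil and macrophage sums were also higher in M2 than in SM&M1 in each same-numbered pair. Thymic epithelial sums (2820, 2420 and 2676 in M2, against 2153, 1621 and 1679 in SM&M1) and fibroblast and endothelial sums (1757, 1719 and 1639 in M2, against 1601, 1497 and 1223 in SM&M1) did not overlap between the sorts. Of 8 tested macrophage markers only Axl was called, against 5.28% of all genes tested. Axl fell (log2 difference -0.77 ± 0.12, SE, adjusted p = 0.0127, and 0.0616 without M2 replicate 2). No marker of neutrophils, B cells, dendritic cells, gamma delta T cells, CD8 T cells, red cells, fibroblasts or endothelium was called by limma. Among these, 1 gamma delta, 3 CD8 and 1 red cell marker had an unadjusted p under 0.05, against 2000 of all 10809 genes tested. With the replicate block Cd74, a dendritic and B cell gene, and Sox13, a gamma delta T cell factor, were lower (adjusted p = 0.0471 and 0.0394) and Car2, a red cell carbonic anhydrase, was higher (adjusted p = 0.0174). In the fit without replicate 1 of both groups 1 dendritic cell and 1 gamma delta marker fell and 1 CD8 marker rose. The 15 natural killer and natural killer T cell markers summed to 9889, 5976 and 6148 in M2 and 11677, 9113 and 8372 in SM&M1. Among them Gzma had 2384, 212 and 162 in M2 and 2227, 136 and 84.6 in SM&M1. Only Icos was called among the 9 tested, as lower, against 5.28% of all genes tested. Without replicate 1 of both groups 2 rose and 1 fell.

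Markers of regulatory T cells, which the CD25 gate should remove, were called in the lower direction only. Of 10 tested genes 2 fell and none rose, against 2.78% and 2.51% of all genes tested. With the block 5 fell, and the median was -0.47. Without replicate 1 of both groups 1 fell, Ikzf2, while Gpr83 did not pass (adjusted p = 0.0666). Ikzf2, which receptor signals also induce, had signals of 1506, 1176 and 1236 in M2, against 2776, 3256 and 2953 in SM&M1 (log2 difference -1.19 ± 0.14, SE, adjusted p = 0.00458). Gpr83 had 639, 836 and 821 in M2, against 1524, 1503 and 2274 in SM&M1 (log2 difference -1.17 ± 0.20, SE, adjusted p = 0.0164, and 0.0523 without M2 replicate 3). Foxp3, the defining gene, was too dim to be tested, with 106, 128 and 150 in M2 and 52.1, 66.6 and 76.6 in SM&M1, and all its M2 values lay above its SM&M1 values. Of 13 tested effector and memory T cell markers 3 rose and 1 fell (Itgb1), against 2.51% and 2.78% of all genes tested. But none rose without M2 replicate 2, M2 replicate 3, SM&M1 replicate 2 or SM&M1 replicate 3, and 1 without M2 replicate 1. In the fit without replicate 1 of both groups 2 rose and none fell. Crip1 rose by 1.21 ± 0.21 (SE, adjusted p = 0.0168, and 0.0792 without SM&M1 replicate 3) and Lgals1 by 0.67 ± 0.15 (SE, adjusted p = 0.0471, lost whichever array was left out), beside Il18r1. Ly75, listed as a thymic epithelial marker and known in dendritic cells too, rose by 1.12 ± 0.20 (SE, adjusted p = 0.0196, and 0.0820 without SM&M1 replicate 3). In bulk samples fewer cells of a type and less RNA per cell cannot be told apart, and the part of other cells in these calls was not tested.

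**Figure D5:**
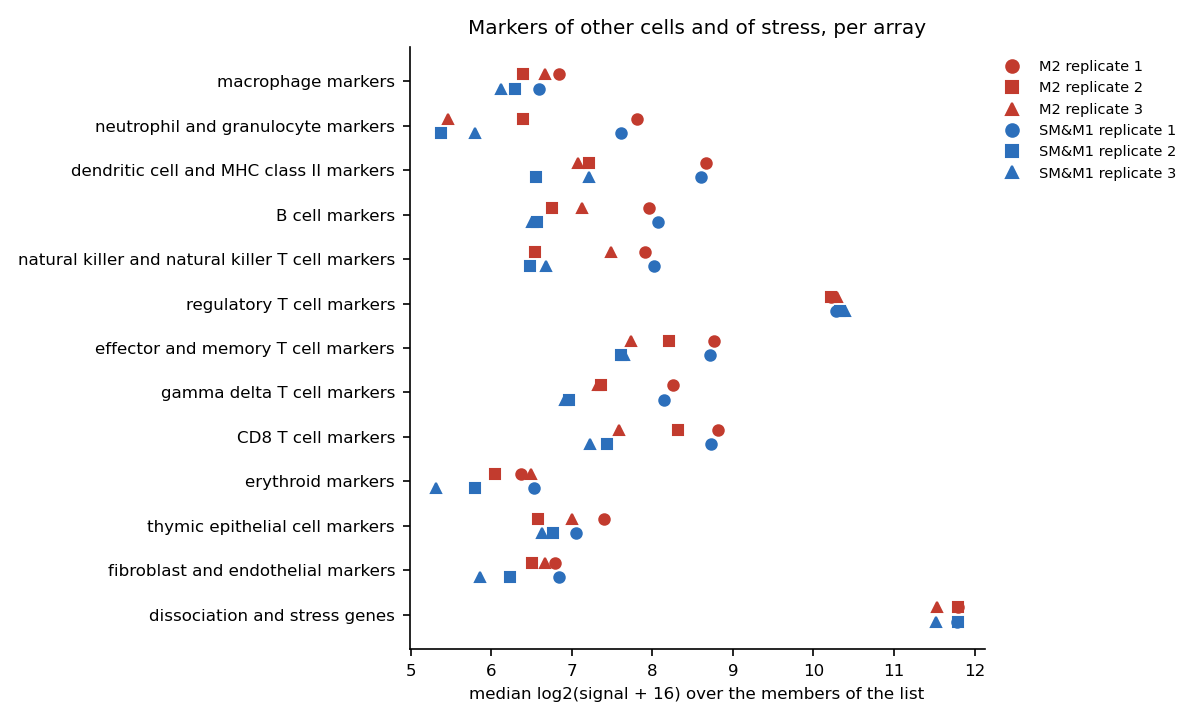
Median log2(signal + 16) over the members of each list of other-cell and stress markers (rows) in the M2 arrays (red, upper) and the SM&M1 arrays (blue, lower), with replicates marked by shape. For neutrophil, dendritic cell, B cell, natural killer, effector, gamma delta and CD8 T cell markers replicate 1 of both groups (circles) lies highest.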

How the data were processed

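RNA of sorted thymocytes was amplified, labelled with biotin and hybridised to 1 Affymetrix mouse array per sample, per the labels' protocols. The authors deposited linear signal intensity values for 45101 probe sets on 15 arrays. The algorithm behind these intensity values is not given in the sources used here. Each array's mean after trimming 2% at each end was 500.0, so the arrays had been put on 1 scale, and nothing was rescaled here. The log2 values were computed from the deposited signals as log2(signal + 16). All 15 columns matched a sample title, and 0 columns were left unused.

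The platform annotation gave 34945 probe sets 1 gene, 932 several and 9160 none, and 64 were controls. Symbols were updated through RefSeq for 34741. For each of 18193 genes the brightest probe set, by its mean in the 15 arrays, was used. The 10809 genes above the array median in at least 3 of the 6 arrays were tested with limma 3.58.1 (R 4.3.3), with 4 residual degrees of freedom and Benjamini-Hochberg adjustment. Probe sets of several genes or none were tested in a separate fit of 22942 probe sets. Tables and figures used Python 3.11.15, numpy 2.4.6, scipy 1.17.1, pandas 2.3.3 and matplotlib 3.10.9. The number of arrays limits the precision.

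The comparison, the gene lists and the rules were chosen with earlier results of these data known. Named genes were the 12 largest rises and 12 largest falls among called, at least 2-fold and non-overlapping genes (without predicted genes and receptor segments), up to 4 called members per list or its largest change, up to 2 largest changes and the brightest member per list of other cells, and genes that check the labels, Map3k7 and B2m among them. Other list members that the text names were chosen after their values were seen, such as Oas1a, Nr4a2, Egr2, Nab2, Cd28, P2ry10, Ccr8, Ptger4, Itga4, Slamf6, Il7r, Cxcr4, Bcl2, Cd24a, Rag1, S100a8, Mki67 and the genes that passed only with the block.

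Samples of the same replicate number deviated together from their group means, with correlations over genes of 0.513, 0.462 and 0.360 against -0.330 to -0.063 between different numbers. Deviations from a group mean cancel within the group, so positive values for same numbers make the others negative on average. The negative values thus add no support of their own. The numbers were therefore taken to pair the samples, on this check of the data alone, since the labels do not say what a number marks. The fit without the block was kept as the main one, so its calls and adjusted p-values leave this pairing out. On simulated data with 200 of 10809 genes changed, the test recovered 80.5% of 2-fold changes with 5.29% false calls and 98% of 4-fold changes with 6.22% false calls. The simulated noise was normal and independent between arrays. In the data same-numbered arrays deviated together, replicate 1 stood apart and 571 genes were called, so these rates need not hold for the calls here. Promoter windows came from RefSeq (GRCm38.p6) for 89 of 118 named genes.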

Additional observations from a re-analysis of the deposited data

Results flagged for a closer look

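Signals outside the gene tests came from probe sets that carry no gene name here or several. Of 3073 tested probe sets without a name 56 were called (1.82%), with 40 higher and 16 lower in M2. Of 572 tested probe sets of several genes 22 were called (3.85%), with 16 higher and 6 lower in M2, against 3.19% of 19297 probe sets of 1 gene. The largest rise without a name had signals of 505, 703 and 629 in M2, against 20.3, 70.1 and 6.28 in SM&M1 (log2 difference 3.92 ± 0.44, SE, adjusted p = 0.00568). The next rise was 3.28 ± 0.32 (SE, adjusted p = 0.00392), and the largest fall without a name was -1.49 ± 0.25 (SE, adjusted p = 0.0252).

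Among shared probe sets, that of Gvin1 and Gm4070, which belong to a family of very large interferon-inducible GTPases, had signals of 2076, 2273 and 2131 in M2, against 808, 458 and 470 in SM&M1 (log2 difference 1.92 ± 0.22, SE, adjusted p = 0.0066). The probe set of Ctla2a and Ctla2b, related cysteine protease inhibitors, had 363, 70.1 and 139 in M2, against 1100, 719 and 1161 in SM&M1 (log2 difference -2.52 ± 0.49, SE, adjusted p = 0.0418). That of Rpl13 and Tax1bp3 had 944, 844 and 831 in M2, against 2012, 1843 and 2213 in SM&M1 (log2 difference -1.2 ± 0.13, SE, adjusted p = 0.00556). Which gene of a shared probe set carried its difference was not tested.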

How the results depend on the processing

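The number of called genes changed with the arrays in the fit and with the filter. Every one of 82 called named genes kept its direction under all 21 alternatives that gave it a value. For most alternatives this outcome was fixed in advance. Called genes had groups that do not overlap, and the block, the prior and the filter leave the mean difference as it was. Against 571 calls (271 higher and 300 lower in M2), all 15 arrays gave 284 (118 and 166), no filter 157 (78 and 79), leaving out replicate 1 of both groups 323 (152 and 171), and leaving out 1 array 220 to 540 (106 to 231 and 114 to 309). The replicate block, which compares same-numbered samples, gave 1014 (491 and 523), and with the 12 Tak1-sufficient arrays 1017 (457 and 560). Calls of at least 2-fold, 243, came to 142 without a filter, 161 with a filter at the 75th percentile and 155 to 301 with 1 array left out. Maturation and egress members called higher, 12, came to 6 with all 15 arrays, 7 without a filter and 8 to 12 with 1 array left out. Interferon-stimulated members called higher, 5, came to 2 with all 15 arrays, 3 with the 12 arrays, 18 with the replicate block, 11 with the block and 12 arrays, 3 without a filter, 13 with the 75th percentile, 13 with a trended and robust prior and 3 to 6 with 1 array left out. T cell receptor-induced members called lower, 15, came to 8 with all 15 arrays, 7 without a filter and 8 to 14 with 1 array left out. The causes were not tested.

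Of the 82 called named genes 42 kept their call whichever array was left out, 81 with the replicate block (Ms4a6c lost it), 81 with quantile normalization, 69 with each array centred on its median, 49 with all 15 arrays and 37 without a filter. The mean of all probe sets moved 11 of 75 by over 1.5 times. Signs turned only in genes that were not called. The mean of all probe sets gave Fdft1 0.08, Csf1r 0.34 and Eif2s3y -0.07. Quantile normalization gave Hspa8 -0.03 and Cd3e -0.02, and Cd3e was -0.01 with median centring and -0.02 without replicate 1 of both groups. With 1 array left out the differences ranged from -0.42 to 0.33 for Csf1r, -0.30 to 1.52 for Ngp, -0.12 to 0.78 for 5830411N06Rik, -0.15 to 0.02 for Cd8b1, -0.04 to 0.27 for Hspa8, -0.11 to 0.15 for Cd3e, -0.28 to 0.08 for Xist and -0.07 to 0.52 for Eif2s3y. Of 18193 genes, those under the array median were not tested, so dim genes such as Foxp3 have values only.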
